A study of Mus musculus with 64 samples.

Results

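The vestibular epithelium of the developing mouse inner ear was compared with the tissue that surrounds it, from E11 to E15 (embryonic days). The vestibular side was chosen by tissue and stage label: the vestibular organ at E11, E11.5 and E12, and from E12.5 to E15 (6 stages) the saccule and, dissected apart from it, the utricle together with its 3 ampullae. These make 30 of the 64 arrays of the series, with 2 arrays for each tissue and stage, and they were set against 2 arrays of non-inner ear tissue. All embryos were of the CBA/J strain. Every ear used here was held for 20 to 25 minutes in dispase, a protease that loosens epithelium from connective tissue, before the epithelium was dissected by hand. The vestibular organ was the dorsal part of the ear without the endolymphatic duct. Each array held RNA from a pool of tissues of different litters, 6 to 17 tissues per vestibular pool. Both non-inner ear pools mixed all 9 stages, with 31 tissues in replicate 1 and 38 in replicate 2, and between 2 and 6 tissues from any stage. The surroundings were therefore measured as a mixture over time, and no array gives them at a single stage. The cochlea of the same stages (18 arrays) served as a second comparison.

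The vestibular organs sense head movement and gravity. Hair cells in the cristae of the ampullae respond to rotation beneath a gelatinous cupula, and those of the utricle and saccule respond to acceleration through an otoconial membrane that carries calcium carbonate crystals, the otoconia. All of these organs, and the cochlea, grow from the otic vesicle, an epithelial sac that lies beside the hindbrain within mesenchyme that will form the cartilage capsule of the ear.

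Values are array signals after normalisation to a common distribution, with a floor of 10 below which the deposited values are not ordered. Changes are differences of log2(signal + 16), so a change of 1 is close to a 2-fold difference for bright genes and understates it for dim ones. A gene passed the test where its adjusted p was below 0.05 and its change was at least 1 in either direction. Where both non-inner ear arrays lay at the floor, the change is given as "at least". Where another group compared has a median of 10, the size of the change is likewise a lower bound. Array medians before normalisation were 75.3 to 99.7 on the vestibular arrays, against 79.5 to 80.6 on the non-inner ear arrays. Between 5.43 and 9.98 percent of values were at the floor on vestibular arrays, the most on the E11 arrays, against 7.21 to 7.88 percent on non-inner ear arrays. Replicate arrays correlated at 0.947 to 0.991 in the vestibular groups, against 0.963 in the non-inner ear pair. The number of arrays, and most of all the 2 arrays of surrounding tissue, limits the precision.

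Summed markers of the labelled tissues were brighter on vestibular arrays than in the surroundings, although not every member was. The summed signal of the otic epithelium markers Oc90, Otog, Epcam, Gata3 and Sox10 was 10620 to 22250 on vestibular arrays, against 391 to 493 on non-inner ear arrays, where Epcam lay at the floor. Pax2, also on that list, was not analysed here. Summed hair cell markers (Atoh1, Pou4f3, Gfi1, Myo7a) reached 149 to 2739 on vestibular arrays, against 57.2 to 73.4 in the surroundings. Taken alone, Gata3 did not pass (change 0.44), and Gfi1 and Atoh1 were no higher than the surroundings at E11 and E11.5. Markers of other tissues also gave signal on the vestibular arrays, and whether it came from other cells was not tested. Summed periotic mesenchyme markers (Twist1, Prrx1, Col1a1, Col1a2, Pdgfra) reached 776 to 3301 on vestibular arrays, against 11860 to 12540 on non-inner ear arrays, and hindbrain markers (Zic1, Egr2, Fabp7) reached 344 to 2851, against 8183 to 8606. Red blood cell markers overlapped between the groups, at 64.6 to 7945 on vestibular arrays, against 6380 to 8315. Summed cartilage (Col2a1, Acan, Matn1) and skeletal muscle (Myod1, Myog, Acta1) markers overlapped too. These sums stood at 2370 to 8373 and 120 to 383 on vestibular arrays, against 6116 to 6862 and 218 to 356 in the surroundings. Their members differed: Acan, Matn1 and Myog passed as lower (changes of -3.87, -4.52 and -2.27), while Acta1 did not pass (0.68).

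Averaged over the 9 stages, 834 of 9352 genes tested (8.92 percent) were higher in vestibular epithelium than in the surrounding tissue, and 678 (7.25 percent) were lower. Every count of list members against the surroundings is to be read beside these shares. The median change over all genes was -0.01. Differences of at least 4 on the log2 scale were found for 18 genes that were higher and 13 that were lower. All 30 vestibular arrays lay above both non-inner ear arrays for 947 genes (10.1 percent) and below both for 864 (9.24 percent). This separation held for 584 of the 834 genes that passed as higher and for 504 of the 678 that passed as lower. Both non-inner ear arrays were at the floor for 35 of the genes that passed as higher. Most vestibular arrays were at the floor for 17 of the genes that passed as lower. In pooled tissue, fewer cells of a type and less RNA per cell cannot be told apart, and this holds for every result that follows. Under the values as deposited, without normalisation between arrays, the median of all genes moved to 0.19, and 1214 genes were higher and 457 lower, so that 72.7 percent of calls were positive, against 55.2 percent.

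The highest changes were those of genes for the extracellular structures of the ear. Otog encodes otogelin, a protein of the cupula and of the otoconial and tectorial membranes. Its lowest, median and highest signals on vestibular arrays were 3566, 9053 and 10720, against 25.3 and 85.8 on the non-inner ear arrays, a change of 6.73 (SE 0.15, adjusted p = 2.77e-31). Oc90, the main matrix protein of otoconia, had signals of 3794, 8152 and 10480 on vestibular arrays, against 148 and 178 in the surroundings, a change of 5.38 (SE 0.17, adjusted p = 1.13e-25). For both genes the lowest vestibular array was far above the higher of the non-inner ear arrays. Against the cochlea, Otog changed by 0.03 and Oc90 by 0.33, and neither passed. Aldh1a3, an enzyme that makes retinoic acid, had 273, 1962 and 5883 on vestibular arrays, against 28.8 and 17.4 in the surroundings (change 5.25, SE 0.19, adjusted p = 4.78e-24), and its lowest values were those of E11.

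The rest of the 10 highest changes came from genes of varied roles. Gldc, a subunit of the glycine cleavage system, had signals of 224, 1316 and 2365 on vestibular arrays, against 13.2 and 20.5 on non-inner ear arrays (change 5.15, SE 0.15). Dtna, the cytoskeletal adaptor dystrobrevin, had 1985, 3234 and 4527, against 10 and 401, so its change of 4.85 (SE 0.35) rests on surrounding arrays that differ widely from each other. Pkp2, a plaque protein of desmosomes, changed by 4.74 (SE 0.19), and Myh14, a non-muscle myosin heavy chain, by 4.66 (SE 0.18). Agr3, a protein disulfide isomerase of the endoplasmic reticulum, had 21.8, 2240 and 5438 on vestibular arrays, against 14.9 and 17.5 in the surroundings (change 4.61, SE 0.18). Its change was 0.49 at E11 and 7.16 at E15. Cyb561, an ascorbate-dependent electron carrier, changed by 4.60 (SE 0.12), and Cldn7, a claudin, by 4.59 (SE 0.16). All 30 vestibular arrays lay above both non-inner ear arrays for every one of these 10 genes. The genes were picked by their changes on these same arrays, so this separation is no separate support.

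**Figure D1:**
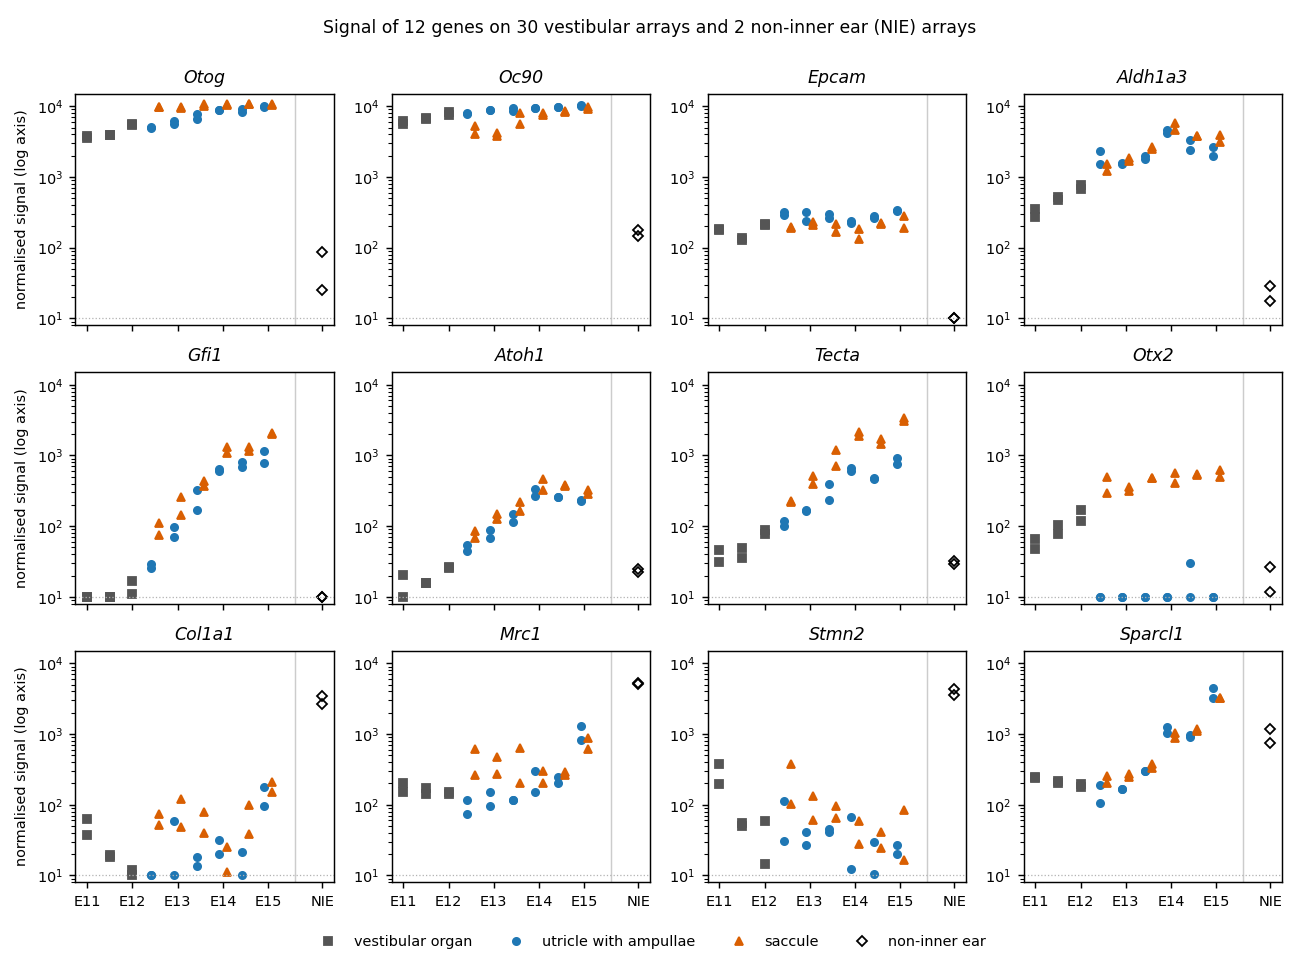
Normalised signal (log axis) of 12 genes against embryonic stage, with the vestibular organ (squares), utricle with ampullae (circles) and saccule (triangles) on the left of each panel and the 2 pooled non-inner ear arrays (open diamonds, NIE) on the right. Each point is 1 array and the dotted line is the floor of 10. Otog, Oc90, Epcam and Aldh1a3 stay above the surroundings at all stages, every Tecta array from E12, and every Gfi1 and Atoh1 array from E12.5, is above the surroundings, Otx2 is at or near the floor in the utricle, and Col1a1, Mrc1 and Stmn2 lie below the surroundings throughout.

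Genes of epithelial junctions and membrane-bound proteases were the list with the most members higher in vestibular tissue. Of 27 tested, 20 were higher and 0 lower, and their median change was 2.34, against -0.01 over all genes. The list joins 3 kinds of gene. Among the tight junction proteins, Cldn7 had signals of 948, 1591 and 2101 on vestibular arrays, against 38.5 and 55.1 in the surroundings, and Marveld2 (tricellulin) changed by 4.06 (SE 0.20). Among the serine proteases of epithelial surfaces and their inhibitors, Prss8 changed by 4.47 (SE 0.20), St14 (matriptase) by 4.11 (SE 0.15) and the inhibitor Spint1 by 2.64 (SE 0.14). Among the regulators of epithelial identity, the splicing factors Esrp1 and Esrp2 changed by 3.61 (SE 0.15) and at least 3.28 (SE 0.24). Epcam, an epithelial adhesion molecule, had 126, 220 and 346 on vestibular arrays, against 10 and 10 in the surroundings, a change of at least 3.14 (SE 0.13, adjusted p = 7.15e-22). E-cadherin (Cdh1), the adhesion molecule of adherens junctions, had 273, 536 and 793 on vestibular arrays, against 115 and 90.5 (change 2.24, SE 0.14). None of the vestibular arrays reached down to the surrounding tissue for these genes. The 7 members that did not pass included Grhl2, a transcription factor of epithelia, which had 156, 236 and 400 on vestibular arrays, against 283 and 756 in the surroundings (change -0.91, SE 0.19).

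Because these genes moved together, their promoters were searched in the RefSeq table of GRCm38.p6, which gives 250 bases before and 50 bases after each annotated start. CAGGTG, the E-box read by the Snai and Zeb repressors, and ACCGGT, part of the motif of Grhl factors, were counted on both strands without overlap between them. The table held promoters for 12 of the 20 epithelial genes that were higher, and 10 of the 12 had CAGGTG in at least 1 promoter, which made 13 of 16 promoters (81.2 percent). Over all 27 epithelial genes tested, whether or not they passed, it was in 19 of 22 promoters (86.4 percent). The same motif was found in 26.9 percent of the 866 promoters of all genes that were higher, in 17.6 percent of the 680 promoters of genes that were lower, in 18.7 percent of the 9663 promoters of all genes tested and in 20.2 percent of the 32851 promoters in the table. It was found in 0 of 14 promoters of the periotic mesenchyme genes that were lower. ACCGGT was found in 2 of the 16 epithelial promoters, against 3.03 percent of the promoters of all genes tested. A match describes the letters in the window and is no evidence that a factor binds there. The promoters of 4 members are shown for how often the motif recurs close to the start, in lower case with CAGGTG, its reverse complement CACCTG, and ACCGGT in capitals.
Epcam: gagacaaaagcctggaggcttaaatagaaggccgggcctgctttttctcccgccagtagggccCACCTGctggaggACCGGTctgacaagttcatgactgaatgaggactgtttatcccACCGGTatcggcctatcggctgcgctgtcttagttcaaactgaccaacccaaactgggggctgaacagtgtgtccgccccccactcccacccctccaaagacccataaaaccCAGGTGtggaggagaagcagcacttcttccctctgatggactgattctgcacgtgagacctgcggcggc
Cldn7: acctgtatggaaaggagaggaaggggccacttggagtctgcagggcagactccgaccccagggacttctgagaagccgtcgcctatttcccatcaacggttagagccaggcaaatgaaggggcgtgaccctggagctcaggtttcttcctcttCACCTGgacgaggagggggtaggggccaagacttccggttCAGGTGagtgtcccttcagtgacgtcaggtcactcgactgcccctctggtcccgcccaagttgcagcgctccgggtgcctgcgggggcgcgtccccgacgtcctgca
Ap1m2: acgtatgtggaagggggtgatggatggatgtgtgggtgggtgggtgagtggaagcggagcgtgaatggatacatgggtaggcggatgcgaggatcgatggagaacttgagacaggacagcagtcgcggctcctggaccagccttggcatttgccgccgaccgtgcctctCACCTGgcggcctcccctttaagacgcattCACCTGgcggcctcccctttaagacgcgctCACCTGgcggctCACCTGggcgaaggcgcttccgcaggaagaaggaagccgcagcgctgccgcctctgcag
Lsr: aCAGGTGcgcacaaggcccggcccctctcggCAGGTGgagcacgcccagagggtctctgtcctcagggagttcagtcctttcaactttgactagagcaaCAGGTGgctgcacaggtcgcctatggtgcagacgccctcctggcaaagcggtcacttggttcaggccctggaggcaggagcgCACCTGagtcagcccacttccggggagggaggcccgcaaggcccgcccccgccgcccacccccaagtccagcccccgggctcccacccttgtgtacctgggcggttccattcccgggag

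The Epcam window lies on the plus strand at chr17:87635729-87636028, with CAGGTG 187 and 19 bases before the start (-187 and -19) and ACCGGT at -174 and -131. The Cldn7 window shown is 1 of 2 in the table, on the plus strand at chr11:69965171-69965470, with matches at -97 and -57, and the other window has none. Ap1m2, an adaptor subunit for sorting to the basolateral membrane, has its window on the minus strand at chr9:21312284-21312583, with 4 matches at -81, -51, -21 and -9. Its signals were 428, 753 and 1101 on vestibular arrays, against 26.4 and 14.9 in the surroundings (change 4.42, SE 0.15). Lsr, a receptor that recruits tricellulin to the corners between cells, has its window on the minus strand at chr7:30973420-30973719, with 4 matches, of which those nearest the start are at -151 and -69. Its signals were 227, 412 and 707 on vestibular arrays, against 77.9 and 84.2 in the surroundings (change 2.16, SE 0.16).

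Of the Snai and Zeb repressors, Snai2, Zeb1 and Zeb2 were tested, and all 3 were lower in the epithelium. Other factors that may read this E-box were not examined. Snai2 had a lowest signal of 11.0 and a median of 26.2 on vestibular arrays, against 436 and 645 in the surroundings (change -3.49, SE 0.21). Zeb2 had 10, 16.5 and 82.7, against 344 and 295 (change -3.14, SE 0.20), and Zeb1 had 10, 28.8 and 94.95, against 123 and 163 (change -1.60, SE 0.29). For all 3 of these genes the highest vestibular array lay below both non-inner ear arrays. Whether these factors act on the promoters shown was not tested.

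Keratins split. Of 8 tested, 3 were higher and 2 lower. The simple-epithelium pair Krt18 (change 4.12, SE 0.16) and Krt8 (change 2.70, SE 0.18) were higher, as was Krt23 (change 2.49, SE 0.18). Krt15 (change -1.51, SE 0.25) and Krt17 (change -1.08, SE 0.44), which mark stratified epithelium, were lower. Of 9 epidermal genes, which include Krt15, 1 was higher and 3 were lower. The share that was higher is close to the 8.92 percent of all genes, and 7.25 percent of all genes were lower. Perp, a desmosomal protein, was higher (change 2.64, SE 0.32). Trp63, the master regulator of stratified epithelium, had 33.9, 68.0 and 384 on vestibular arrays, against 655 and 1014 in the surroundings (change -3.09, SE 0.42), while its other probe set changed by -0.10 and did not pass.

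Genes of otoconia and of the acellular membranes divided between those that were far higher and those that the surroundings also carry. Of 10 otoconia genes tested, 3 were higher and 2 lower. Besides Oc90, Slc26a4 (pendrin, an anion exchanger of the endolymph) changed by 2.95 (SE 0.16), and Noxo1, a subunit of the oxidase needed for otoconia, changed by 1.80 (SE 0.18). Car3, a carbonic anhydrase, had 75.6, 129 and 204 on vestibular arrays, against 591 and 424 (change -1.79, SE 0.13). Sparcl1, a secreted matrix protein, had 105, 299 and 4495 on vestibular arrays, against 1161 and 738 (change -1.08, SE 0.14), and the change was -0.76 without non-inner ear replicate 1. Of 12 membrane genes tested, 5 were higher and 2 lower. Tecta, which encodes the glycoprotein α-tectorin, had 31.6, 428 and 3346, against 32.2 and 29.4 in the surroundings (change 2.63, SE 0.15, adjusted p = 1.54e-17), and its lowest vestibular arrays overlapped with the surroundings. Otoa (otoancorin, which anchors the gels to the epithelium) changed by 2.12 (SE 0.21), or by 0.96 with the utricle alone from E12.5, and Vit (vitrin, a matrix protein with von Willebrand domains) by at least 1.74 (SE 0.14). The collagen Col11a1 (change -1.92, SE 0.15) and the proteoglycan Epyc (change -1.37, SE 0.17), which cartilage also carries, were lower.

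Of 19 hair cell genes tested, 8 were higher and 0 lower, with a median change of 0.55. They included the actin bundler Espn (at least 2.98, SE 0.41), the stereocilia scaffold Ush1c (2.65, SE 0.21), the unconventional myosins Myo6 (2.13, SE 0.19) and Myo7a (1.37, SE 0.21), and the transcription factor Pou4f3 (1.78, SE 0.21). The other probe sets of Myo6 changed by 0.39 and 0.38 and did not pass. Gfi1, a zinc-finger repressor needed for hair cell survival, had 10, 290 and 2086 on vestibular arrays, against 10 and 10 in the surroundings, a change of at least 2.64 (SE 0.16, adjusted p = 3.67e-17). Atoh1, the transcription factor that starts hair cell differentiation, had 10, 150 and 466, against 22.8 and 25.1 (change 1.45, SE 0.14, adjusted p = 1.53e-11). Both genes overlapped with the surroundings at early stages. With E11 to E12 alone the change of Gfi1 was 0.06 and that of Atoh1 was -0.21, and neither passed.

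Among the genes of the Notch pathway and prosensory patterning, 5 of 21 were higher and 3 lower. Sox21, a Sox family repressor, had 283, 1228 and 6317 on vestibular arrays, against 10 and 102 in the surroundings (change 4.53, SE 0.24). Those surrounding arrays differ widely from each other. The Notch effector Hey1 had 208, 312 and 446, against 65.1 and 35.9 (change 2.28, SE 0.12), while the receptor Notch2 had 114, 244 and 1458, against 2114 and 968 (change -2.44, SE 0.30). The other probe set of Notch2 changed by -0.83 and did not pass. The inhibitors of differentiation Id4 and Id1 changed by 1.83 (SE 0.20) and 1.72 (SE 0.19). Fgfr3 (change -1.49, SE 0.22) and the cell cycle inhibitor Cdkn1b (change -1.29, SE 0.28) were lower.

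The otic regulators were led by Sox2, which specifies the sensory patches. Its signals were 254, 613 and 1104 on vestibular arrays, against 38.04 and 43.6 in the surroundings (change 3.14, SE 0.11, adjusted p = 4.27e-24), with no overlap. Of 17 regulators tested, 6 were higher and 1 lower. The share that was lower is close to the 7.25 percent of all genes, and 8.92 percent of all genes were higher. Tbx3 changed by 2.92 (SE 0.15), Sox10 by 2.23 (SE 0.19), Tbx2 by 1.74 (SE 0.20), Otx2 by 1.70 (SE 0.17) and Dach1 by 1.29 (SE 0.29). The other probe sets of Sox10 changed by 1.44, which passed, and by 0.50, which did not. Fgf3, a ligand that induces the ear and is made by the hindbrain as well, was lower (change -1.36, SE 0.20). Gata3, a zinc-finger factor of the otic vesicle, had 14.3, 44.4 and 132 on vestibular arrays, against 31.6 and 37.9 (change 0.44, SE 0.20, adjusted p = 0.0632). With E11 to E12 alone Gata3 changed by 1.09 and passed. The call of Otx2 was lost with the utricle alone from E12.5, at 0.33.

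Regulators of the dorsal ear, many of which the brain and mesenchyme also use, gave 2 of 21 higher and 5 lower, with a median of -0.53. The share that was higher is close to the 8.92 percent of all genes, and 7.25 percent of all genes were lower. Hmx2, a homeobox factor needed to form the vestibule, had 24.2, 66.0 and 139 on vestibular arrays, against 10 and 10 in the surroundings (change at least 1.72, SE 0.20). Hmx3, its neighbour in the genome and partner in that role, had 31.6, 66.1 and 149, against 12.45 and 30.1 (change 1.06, SE 0.21), and the change was 0.71 without non-inner ear replicate 1. The zinc-finger factors Zic1 and Zic2 changed by -3.61 (SE 0.46) and -2.08 (SE 0.27), Meis1 by -1.89 (SE 0.15), Pou3f4, a gene of the periotic mesenchyme, by -1.70 (SE 0.17), and Irx3 by -1.36 (SE 0.24).

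Retinoic acid genes were divided in the same way, with 3 of 10 higher and 2 lower. The enzymes Aldh1a3, Aldh1a1 (change 1.60, SE 0.20) and Rdh10 (change 1.54, SE 0.16), which make retinoic acid or its precursor, were higher. Cyp26a1, which degrades it, had 104, 342 and 3424 on vestibular arrays, against 4321 and 3821 in the surroundings (change -2.73, SE 0.24). The binding protein Crabp1 had 52.6, 612 and 5927, against 8132 and 7209 (change -3.19, SE 0.32). All vestibular arrays lay below both surrounding arrays for these 2 genes, although with E11 to E12 alone the change of Cyp26a1 was -0.69 and did not pass. The call of Aldh1a1 was lost with the saccule alone from E12.5, at 0.64.

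In other signalling lists, a minority of members passed, to be read beside the 8.92 percent of all genes that were higher and the 7.25 percent that were lower. Of 18 FGF genes, 1 was higher, the ligand Fgf9 (change 2.63, SE 0.15), and 4 lower, among them the ligand Fgf18 (change -1.72, SE 0.22). Of 26 Wnt genes, 4 were higher and 8 lower, and the list's median was -0.20, or 0.02 with the values as deposited. The receptors Fzd6 (change 2.70, SE 0.20) and Fzd7 (change 1.71, SE 0.16) and the ligands Wnt7a and Wnt4 were higher, while the secreted inhibitors Dkk2 (change -3.22, SE 0.35), Frzb (change -2.99, SE 0.25), Sfrp2 (change -2.48, SE 0.26) and Dkk3 (change -1.75, SE 0.19) were lower. Of 17 BMP and TGF-beta genes, 0 were higher and 4 lower, led by the ligand Bmp5 (change -2.27, SE 0.16). No Hedgehog gene of 10 passed. Of 6 neuregulin and ErbB genes, 1 was higher, the receptor Erbb3, which had 808, 1485 and 2250 on vestibular arrays, against 99.4 and 105 in the surroundings (change 3.59, SE 0.12). Of 15 genes of endolymph ion and water transport, 3 were higher, including the water channel Aqp5 (at least 2.14, SE 0.25), the nuclear receptor Esrrb (1.32, SE 0.24, or 0.34 with the saccule alone from E12.5) and the sodium pump subunit Atp1b1 (1.14, SE 0.20, or 0.65 with E11 to E12 alone and 0.86 with the utricle alone from E12.5).

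**Figure D2:**
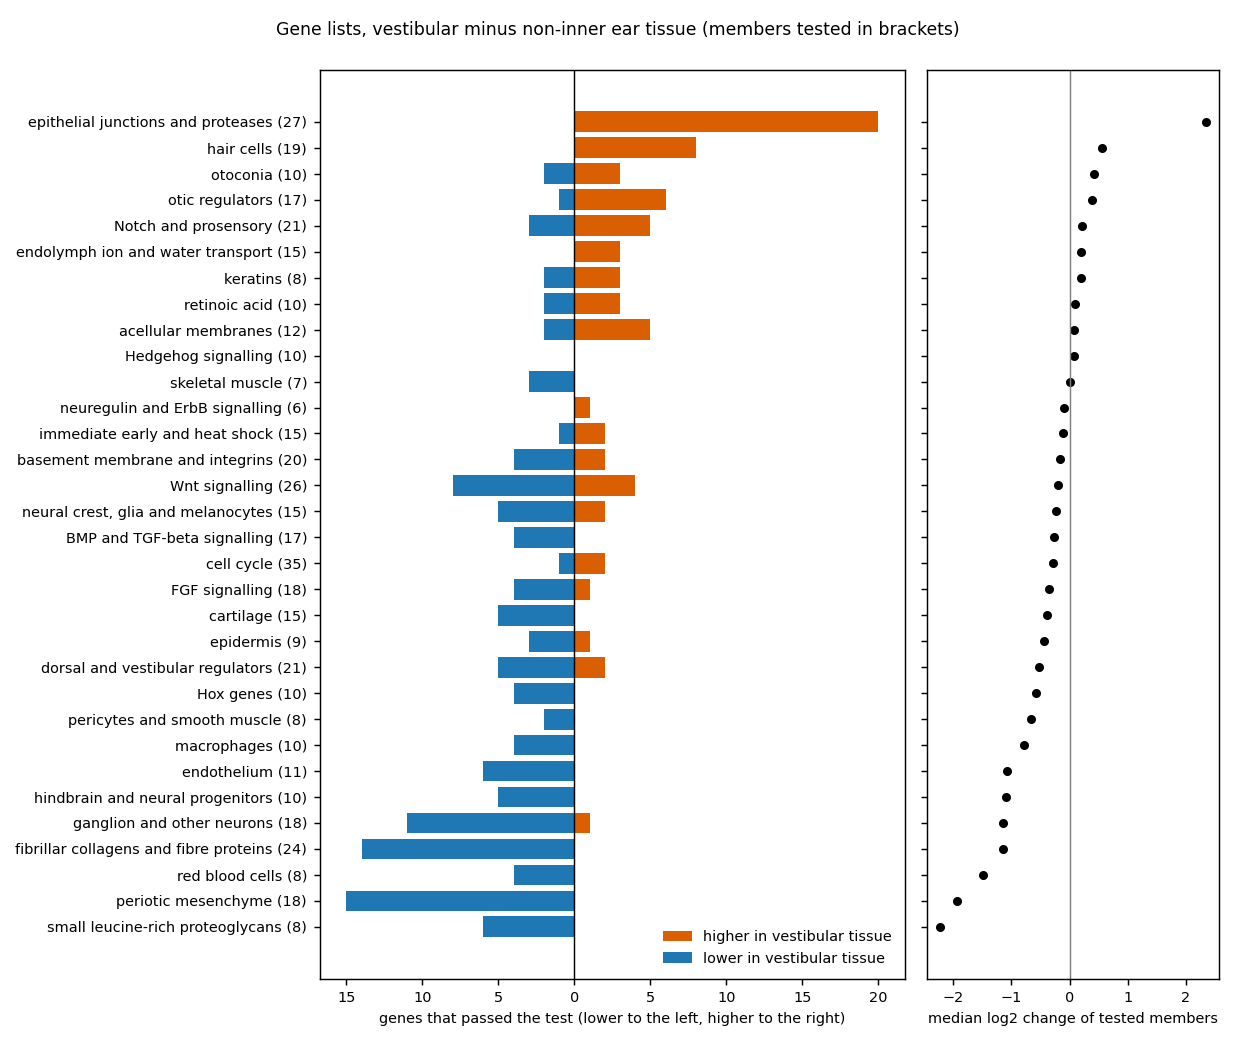
Left, the number of genes of each list that were higher (bars to the right) or lower (bars to the left) in vestibular than in non-inner ear tissue, with the number tested in brackets. Right, the median log2 change of all tested members. Epithelial junction genes stand at the top with 20 of 27 higher and a median of 2.34, and the proteoglycans at the bottom with 6 of 8 lower and a median of -2.23.

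Genes of connective tissue were lower in the dissected epithelium. Of 18 periotic mesenchyme genes tested, 15 were lower and 0 higher, with a median of -1.94. The transcription factors Foxd1 (change -3.66, SE 0.26), Twist1 (change -3.63, SE 0.23), Meox2 (change -3.03, SE 0.20) and Foxc2 (change -2.85, SE 0.18) were among them. Of 24 collagen and fibre genes, 14 were lower and 0 higher, with a median of -1.14. Col1a1, the main chain of type I collagen, had 10, 34.3 and 210 on vestibular arrays, against 3472 and 2632 in the surroundings (change -5.88, SE 0.33, adjusted p = 4.75e-18), the lowest of all changes. Its partner Col1a2 changed by -3.77 (SE 0.16), Col3a1 by -3.30 (SE 0.20) and Fbln2 by -2.90 (SE 0.16). The small leucine-rich proteoglycans, which bind collagen fibrils, had 6 of 8 lower, led by Bgn (change -3.89, SE 0.25) and Ogn (change -2.84, SE 0.15). For Col1a1 the brightest vestibular array, at 210, was still far dimmer than either surrounding array.

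Basement membranes lie between epithelium and mesenchyme, and 2 of 20 of their genes were higher, close to the 8.92 percent of all genes, and 4 were lower. The linker Nid1 had 10, 34.1 and 116 on vestibular arrays, against 623 and 410 in the surroundings (change -3.37, SE 0.21), and its relative Nid2 changed by -1.89 (SE 0.17). Lama4 (change -1.73, SE 0.24) and Col4a1 (change -1.23, SE 0.13) were lower as well. The integrin chain Itga6, a laminin receptor of epithelia, had 316, 705 and 1030, against 141 and 124 (change 2.00, SE 0.12), and the integrin ligand Npnt changed by 1.13 (SE 0.16). The other probe set of Itga6 changed by 0.95 and did not pass. The median of the list was -0.17, or 0.10 with the values as deposited.

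Cartilage genes had 5 of 15 lower, and the change was concentrated in a few. Matn1 had 10, 11.4 and 33.7 on vestibular arrays, against 668 and 725 in the surroundings (change -4.52, SE 0.16). The link protein Hapln1 had 10, 21.9 and 109, against 650 and 1099 (change -4.25, SE 0.21), and the proteoglycan Acan 10, 25.8 and 50.7, against 475 and 682 (change -3.87, SE 0.23). Matn4 overlapped with the surroundings, at 19.3, 621 and 7096 on vestibular arrays, against 4973 and 6915 (change -4.06, SE 0.32).

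Blood and vessel genes passed in part, and none of these lists had a member that was higher. Of 11 endothelial genes, 6 were lower, among them the vascular cadherin Cdh5 (change -1.92, SE 0.18) and the receptor Kdr (change -1.19, SE 0.16). Of 10 macrophage genes, 4 were lower. The mannose receptor Mrc1 had 73.3, 204 and 1288 on vestibular arrays, against 5148 and 5299 (change -4.41, SE 0.35), and F13a1 changed by -3.85 (SE 0.30). Of 8 red blood cell genes, 4 were lower, led by the embryonic globins Hbb-bh1 (change -3.83, SE 0.30) and Hba-x (change -3.53, SE 0.32). Cspg4, the NG2 proteoglycan of pericytes, had 33.9, 75.4 and 143, against 1539 and 2183 (change -4.49, SE 0.23). It and Rgs5 (change -1.05, or -0.79 without non-inner ear replicate 1) were the 2 of 8 pericyte and smooth muscle genes that were lower.

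Neural genes formed the other large group. Of 18 neuronal genes, 11 were lower and 1 higher, with a median of -1.14. Stmn2, a microtubule regulator of growing axons, had 10.3, 47.7 and 381 on vestibular arrays, against 3552 and 4313 in the surroundings (change -5.72, SE 0.49, adjusted p = 9.15e-13). The growth cone protein Gap43 had 31.1, 84.2 and 343, against 2840 and 1912 (change -4.31, SE 0.25), and the neurofilament gene Ina a lowest of 63.0 and a median of 116, against 2321 and 2718 (change -4.20, SE 0.26). The member that was higher was Isl1, a LIM-homeobox factor that the otic epithelium also expresses, with 242, 525 and 834 on vestibular arrays, against 148 and 132 (change 1.70, SE 0.19). Of 10 hindbrain and neural progenitor genes, 5 were lower, led by Zic5 (change -4.39, SE 0.39), with Zic1 and Fabp7 (change -2.87, SE 0.44) on the same list. Of 10 Hox genes, 4 were lower, among them Hoxa2 (change -1.95, SE 0.14) and Hoxa5 (change -1.18, SE 0.19). Hoxa3 (change -1.09) was at -0.63 without non-inner ear replicate 2, and its other probe set changed by -0.73 and did not pass. Of 15 neural crest, glial and melanocyte genes, 2 were higher, Erbb3 and Sox10, and 5 lower, led by Fabp7 and the melanosome protein Pmel (change -2.11, SE 0.34). Over all genes, 8.92 percent were higher and 7.25 percent lower. Of 7 skeletal muscle genes, 3 were lower, led by Myog (change -2.27, SE 0.31). The median of the muscle list was 0.01 and its mean -0.49.

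The genes with the lowest changes also included 1700120B22Rik (change -4.83, SE 0.29), which had 10, 10 and 68.3 on vestibular arrays, against 1063 and 967 in the surroundings, and for which the files give no function. Htra1, a secreted serine protease, had 56.0, 179 and 518, against 4122 and 2948 (change -4.33, SE 0.25). The 10 lowest were completed by Col1a1, Stmn2, Matn1, Cspg4, Mrc1, Zic5, Gap43 and Hapln1. None of the 10 had a vestibular array as bright as either array of the surroundings, but they were picked by their changes on these same arrays.

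The stages were not alike. The epithelial junction list had a median change of 2.53 at E11 and 2.24 at E15, and stayed between 2.00 and 2.75. The mesenchyme list had -1.93 at E11 and -1.79 at E15. Hair cell genes had medians of -0.27 at E11, 0.08 at E12, 0.24 at E13, 0.94 at E14 and 1.59 at E15. Membrane genes had -0.40, -0.20, 0.06, 1.06 and 0.96 at the same stages. Cell cycle genes ran the other way, with 0.33, 0.13, -0.23, -0.79 and -1.06. Because all stages were set against the same pooled surroundings, these steps are differences among the vestibular arrays themselves, and the tissue dissected changed at E12.5. Over E11 to E12 alone 828 genes were higher and 760 lower, and over E12.5 to E15 alone 909 were higher and 722 lower.

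**Figure D3:**
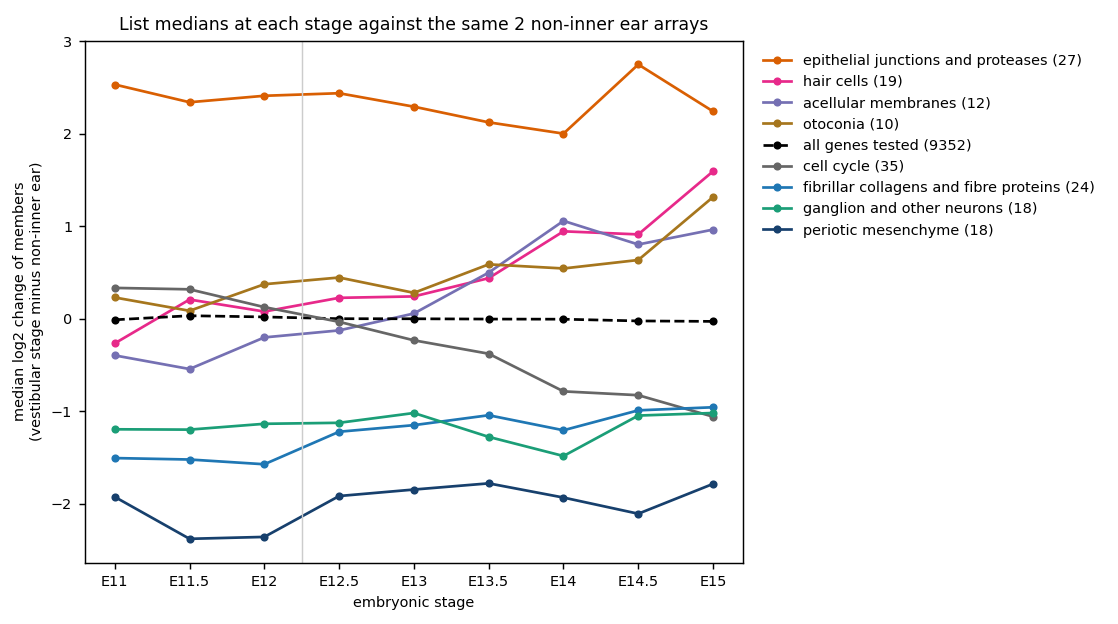
Median log2 change of the members of 8 gene lists, and of all genes tested (dashed), at each stage against the same 2 non-inner ear arrays. The numbers tested are in brackets and the grey line marks the step from the vestibular organ to the separate utricle and saccule. Hair cell, membrane and otoconia genes climb after E13, cell cycle genes descend below the median of all genes, and the epithelial and mesenchyme lists keep to their sides.

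The change with time was tested within the vestibular tissues from E12.5 to E15, as the slope over 6 stages times 2.5 days. By this test 402 genes (4.3 percent) rose and 184 (1.97 percent) fell. Of 19 hair cell genes, 9 rose and 0 fell, of 12 membrane genes 5 rose, of 10 otoconia genes 4 rose, and of 35 cell cycle genes 17 fell and 0 rose. Genes of other tissues rose as well, 3 of 15 cartilage genes, 5 of 24 collagen and fibre genes, 2 of 10 macrophage genes and 3 of 15 neural crest, glial and melanocyte genes, and their part in the result was not tested. The largest rise was that of Smpx, a small muscle protein also present in hair cells. Its signals were 10 to 1160 in the utricle and 10 to 1624 in the saccule, and it rose by 5.77 (SE 0.17, adjusted p = 2.33e-26). Gfi1 rose by 4.52 (SE 0.13, adjusted p = 5.49e-27), Myo7a by 2.01 (SE 0.17), Otof, the calcium sensor of the hair cell synapse, by 2.31 (SE 0.16), and Atoh1 by 2.10 (SE 0.11). Against the surroundings, Gfi1 stood at 1.39 at E12.5, 2.46 at E13, 5.08 at E14 and 5.76 at E15, whereas Atoh1 stood at 0.95, 1.60, 3.17 and 2.81 at those stages. The tectorins Tectb and Tecta rose by 3.43 (SE 0.21) and 3.16 (SE 0.12), and Slc26a4 by 1.53 (SE 0.13).

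Several of the other steep rises belonged to genes outside the hair cell and membrane lists. Otor, a secreted protein of cartilage and the inner ear known as otoraplin, rose by 4.69 (SE 0.34), although it was lower than in the surroundings over all stages (change -3.85, SE 0.41). Spag6l, a protein of motile cilia, rose by 4.45 (SE 0.16), the small heat shock protein Cryab by 4.17 (SE 0.16), Sparcl1, of the otoconia list, by 4.17 (SE 0.11), the carboxypeptidase Cpxm2 by 4.05 (SE 0.16) and the calmodulin-like Calml4 by 3.91 (SE 0.16). Sparcl1 stood at -2.27 against the surroundings at E12.5 and at 1.90 at E15. The glial and calcium-binding protein S100b rose by 3.90 (SE 0.15) and the matrix protein Tnc by 3.06 (SE 0.13).

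Among the genes that fell with time, the embryonic globin Hbb-y fell by 6.06 (SE 0.32, adjusted p = 1.73e-18), and Hba-x fell by 2.31 (SE 0.26). The red blood cell list went both ways, as 3 of its 8 genes fell and 2 rose. The summed red blood cell markers, of which Hbb-y is 1 of 3, ranged from 65.2 to 3319 in the utricle with ampullae and from 64.6 to 7945 in the saccule. The part of blood content in this result was not tested. Hmga2, a chromatin protein of embryonic growth, fell by 2.84 (SE 0.17), Crabp1 by 2.82 (SE 0.26) and the microtubule regulator Stmn4 by 2.80 (SE 0.36). Neurod1, a transcription factor of ganglion neuroblasts, fell by 2.29 (SE 0.13), and it stood at 1.24 against the surroundings at E11 and at -2.78 at E15. Pgf, a growth factor of vessels, fell by 2.46 (SE 0.23). The cell cycle genes that fell included Rrm2 (2.27 lower, SE 0.23), Cenpa, Birc5 and Mki67, with changes of -1.83 (SE 0.11), -1.75 (SE 0.11) and -1.31 (SE 0.13).

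Within the vestibular tissues, the utricle with ampullae and the saccule were compared at the same 6 stages, with 12 arrays each. Of 9352 genes, 146 (1.56 percent) were higher in the utricle with ampullae and 116 (1.24 percent) were lower. The sharpest split was that of 2 homeobox genes. Dlx1 had signals of 2908, 3771 and 4786 in the utricle with ampullae, against 17.5, 65.3 and 257 in the saccule (change 5.49, SE 0.23, adjusted p = 5.58e-22). Otx2, which patterns the ventral ear, had 10, 10 and 30.3 in the utricle with ampullae, against 297, 490 and 620 in the saccule (change -4.11, SE 0.10, adjusted p = 2.76e-30). Its median in the utricle with ampullae lay at the floor, so the size of this change is a lower bound. The arrays of the 2 tissues did not overlap for either gene. The surroundings held Dlx1 at 4127 and 4928, so that it was lower in vestibular tissue as a whole (change -2.40, SE 0.42).

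The genes higher in the utricle with ampullae included retinoic acid enzymes and BMP ligands. Aldh1a2 had 165, 585 and 1863 in the utricle with ampullae, against 10.8, 35.3 and 127 in the saccule (change 3.45, SE 0.19), and Aldh1a1 had 79.9, 204 and 943, against 10, 21.2 and 42.0 (change 2.87, SE 0.11). The receptor Rarb went the other way, with 65.6, 85.0 and 133 in the utricle with ampullae, against 134, 252 and 396 in the saccule (change -1.28, SE 0.11). Of 17 BMP and TGF-beta genes, 3 were higher in the utricle with ampullae and 0 lower. Bmp6 had 1439, 2362 and 3350, against 345, 377 and 529 in the saccule (change 2.49, SE 0.06). Bmp4, which marks the cristae, had 252, 316 and 380, against 32.8, 56.0 and 104 (change 2.25, SE 0.09), and Bmp2 had 61.4, 107 and 162, against 10, 15.1 and 28.7 (change 1.98, SE 0.09). None of these ranges met. Id1, Id2, Id3 and Id4, targets of BMP signalling in many tissues, had changes of 1.06, 1.23, 1.51 and 1.70, and they were 4 of the 5 genes of the Notch and prosensory list that were higher.

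Most regulators did not pass between these tissues. Of 17 otic regulators, 2 were higher in the utricle with ampullae and 1 was lower, and of 21 dorsal regulators, 3 were higher and 2 lower. Tbx3 had 1577, 2048 and 2451 in the utricle with ampullae, against 151, 222 and 338 in the saccule (change 3.14, SE 0.09). Meis2 and Meis1 changed by 2.68 (SE 0.08) and 2.38 (SE 0.08), and Tbx1 by 1.87 (SE 0.13). Nr2f1, an orphan nuclear receptor, was lower in the utricle with ampullae, at 42.7, 257 and 747, against 1159, 1636 and 2585 in the saccule (change -2.83, SE 0.14), as were Sox21 (change -2.55, SE 0.13), Six2 (change -2.25, SE 0.10) and Gsc (change -3.39, SE 0.16). The deaminase family member Apobec2 (change 3.81, SE 0.16), the aminopeptidase Enpep (change 3.53, SE 0.10), the potassium channel Kcnd2 (change 3.37, SE 0.14), the zinc-finger factor Zfp503 (change 3.33, SE 0.10) and the protease inhibitor Timp3 (change 3.09, SE 0.08) completed the 8 highest.

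The membrane genes leaned to the saccule, with 1 of 12 higher in the utricle with ampullae and 4 lower. Otoa had 26.6, 47.2 and 266 in the utricle with ampullae, against 467, 942 and 1254 in the saccule (change -3.47, SE 0.12). Tecta had 102, 428 and 919, against 218, 1323 and 3346 (change -1.51, SE 0.09), and Tectb changed by -1.59 (SE 0.14). Vit was the exception, with 109, 221 and 333 in the utricle with ampullae, against 10, 10 and 17.0 in the saccule (change 3.06, SE 0.08). The claudin Cldn8, at 178, 367 and 809 against 10, 34.3 and 111 in the saccule (change 2.99, SE 0.10), and fibronectin (Fn1), at 4367, 5028 and 7003 against 590, 765 and 941 (change 2.79, SE 0.07), were also higher in the utricle with ampullae. The Wnt pathway members Wnt4 (change -3.20, SE 0.12) and Rspo2 (change -2.86, SE 0.08), the thyroid hormone-binding protein Crym (change -3.52, SE 0.08), the matrix protein Postn (change -3.23, SE 0.10) and the receptor antagonist Lrig1 (change -2.96, SE 0.07) were higher in the saccule.

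Markers of other tissues moved with this comparison. Summed hindbrain markers were 344 to 955 in the utricle with ampullae, against 1437 to 2851 in the saccule, and summed mesenchyme markers were 942 to 1963, against 1925 to 3301. Of 18 mesenchyme genes, 0 were higher in the utricle with ampullae and 3 lower, Six2, Foxd1 and Foxc2. The surroundings stood at 8183 to 8606 for hindbrain markers and 11860 to 12540 for mesenchyme markers. The part of these tissues in the differences between utricle and saccule was not tested.

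**Figure D4:**
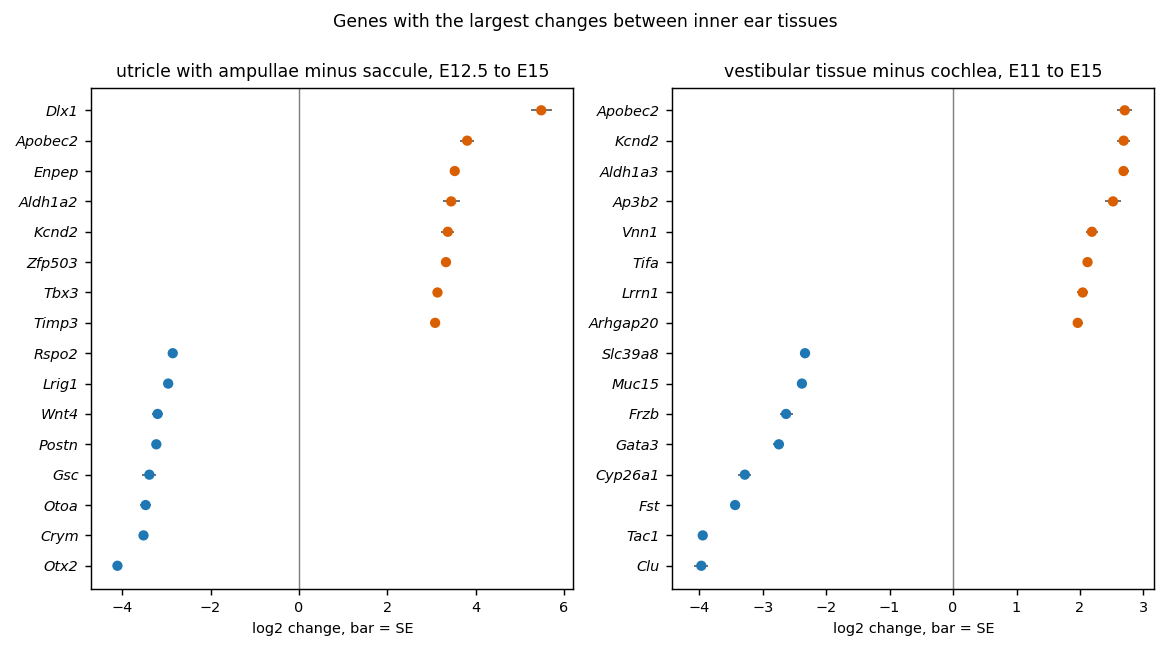
Log2 change, with its standard error as a bar, of the 8 highest and 8 lowest named genes in the utricle with ampullae minus the saccule (left) and in vestibular tissue minus the cochlea (right). Points to the right of 0 are higher in the utricle with ampullae, or in vestibular tissue, and points to the left are higher in the saccule, or in the cochlea. The changes between utricle and saccule reach 5.49 for Dlx1 and those between vestibular tissue and cochlea reach -3.97 for Clu.

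Against the cochlea of the same stages, far fewer genes passed than against the surroundings. In this comparison 76 genes (0.813 percent) were higher in vestibular tissue and 71 (0.759 percent) were lower. No gene of the 27 on the epithelial junction list passed, and their median change was 0.04. None of the 10 otoconia genes passed either, and their median change was 0.07. Under the values as deposited 106 genes were higher and 58 lower, so that 64.6 percent of calls were positive, against 51.7 percent, and the median of all genes moved to 0.12. The comparison with the surroundings and that with the cochlea use the same 30 vestibular arrays, and their values are given side by side as a description.

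Of 10 retinoic acid genes, 5 were higher in vestibular tissue than in cochlea and 2 lower, with a median of 0.78. Aldh1a3 had 273, 1962 and 5883 in vestibular tissue, against 65.9, 281 and 821 in the cochlea (change 2.69, SE 0.08, adjusted p = 3.02e-27), beside 5.25 against the surroundings. Aldh1a2, Rarb, Rdh10 and Aldh1a1 changed by 1.53 (SE 0.14), 1.24 (SE 0.08), 1.22 (SE 0.07) and 1.21 (SE 0.08). The vestibular tissues were not alike for these genes: utricle with ampullae minus saccule was 3.45 for Aldh1a2 and 2.87 for Aldh1a1, while Rarb was higher in the saccule. The degrading enzyme Cyp26a1 had 104, 342 and 3424 in vestibular tissue, against 3019, 6734 and 7280 in the cochlea (change -3.28, SE 0.10, adjusted p = 1.54e-26). The surroundings, at 4321 and 3821, lay within the range of the cochlea. The vestibular organ arrays, at 2055 to 3424, overlapped with the dimmest cochlear arrays.

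Of 19 hair cell genes, 3 were higher in vestibular tissue than in cochlea and 0 lower. Gfi1 had 10, 290 and 2086 in vestibular tissue, against 10, 10 and 70.8 in the cochlea (change 2.44, SE 0.07), Atoh1 had 10, 150 and 466, against 10, 16.0 and 126 (change 1.33, SE 0.06), and Myo6 changed by 1.14 (SE 0.08). For Myo6 the other probe sets changed by 0.52 and 0.79, below the threshold of 1. The arrays overlapped for these genes at the early stages.

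Most patterning genes did not pass against the cochlea. Of 17 otic regulators, 0 were higher in vestibular tissue and 2 lower, Otx2 and Gata3, and of 21 dorsal regulators, 2 were higher, Hmx2 and Meis2, and 4 lower. Hmx2 had 24.2, 66.0 and 139 in vestibular tissue, against 10, 10 and 22.3 in the cochlea (change 1.67, SE 0.08), and Meis2 had 38.4, 390 and 648, against 23.3, 52.5 and 137 (change 1.83, SE 0.06). Gata3 had 14.3, 44.4 and 132, against 255, 437 and 877 in the cochlea (change -2.75, SE 0.08), so that the cochlea stood apart from both vestibular tissue and the surroundings. The BMP antagonist Fst, with 10, 11.47 and 73.5 in vestibular tissue against 208, 327 and 566 in the cochlea (change -3.44, SE 0.07), and Frzb, with 61.2, 112 and 306 against 524, 821 and 1603 (change -2.63, SE 0.10), showed the same separation from the cochlea. The surroundings held Fst at 25.6 and 23.1 but Frzb at 1286 and 855. Irx3 and Irx5 changed by -2.32 (SE 0.10) and -1.84 (SE 0.08), and Hey2 by -2.11 (SE 0.08).

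The lowest change against the cochlea was that of Clu, a secreted chaperone known as clusterin, with 67.3, 168 and 1041 in vestibular tissue, against 1056, 3381 and 6477 in the cochlea (change -3.97, SE 0.11). Tac1, the precursor of substance P, had 10, 16.4 and 40.1, against 56.7, 697 and 980 (change -3.95, SE 0.07). The mucin Muc15 (change -2.38, SE 0.08) and the zinc transporter Slc39a8 (change -2.33, SE 0.07) followed. The highest changes were those of Apobec2, with 43.6, 445 and 3733 in vestibular tissue, against 19.0, 78.6 and 182 in the cochlea (change 2.71, SE 0.12), and Kcnd2, with 16.4, 434 and 1715, against 10, 41.8 and 98.8 (change 2.69, SE 0.11). The vestibular tissues were not alike for these genes: the saccule ranged from 43.6 to 384 for Apobec2 and from 16.4 to 159 for Kcnd2, below the utricle with ampullae. The adaptor subunit Ap3b2 (change 2.52, SE 0.13), the pantetheinase Vnn1 (change 2.19, SE 0.09), Tifa, an adaptor of innate immune signalling (change 2.12, SE 0.08), the membrane protein Lrrn1 (change 2.04, SE 0.09) and the GTPase activator Arhgap20 (change 1.96, SE 0.08) completed the 8 highest.

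Some neuronal and matrix genes that were lower than in the surroundings were nevertheless higher than in the cochlea. Nefm, a neurofilament gene, had 702, 2448 and 4928 in vestibular tissue, against 77.9, 488 and 3496 in the cochlea (change 2.09, SE 0.20) and 5340 and 4502 in the surroundings (change -1.21, SE 0.48). Nefl changed by 1.48 (SE 0.11) against the cochlea and by -2.97 (SE 0.27) against the surroundings, and S100b by 1.84 (SE 0.07) and by -1.16 (SE 0.18). For Tecta and Tectb the order was reversed, with changes of -1.19 (SE 0.06) and -1.81 (SE 0.11) against the cochlea, beside 2.63 and 1.013 against the surroundings. The call of Tectb against the surroundings was lost when any 1 of 7 arrays was left out: non-inner ear replicate 2 (0.95), replicate 2 of the vestibular organ at E12, replicate 1 of the utricle with ampullae at E13, E13.5 or E15, or replicate 1 of the saccule at E13 or E13.5 (0.97 or above in each).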

How the data were processed

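RNA was labelled with biotin and hybridised to Affymetrix arrays. The deposited table holds intensity values of 22626 probe sets on 64 arrays, which the authors computed in MAS5 (per the submitters' processing notes, without version or scaling). Probe sets were named through the platform annotation: 20380 had 1 symbol, 691 several and 1555 none. Trimmed means of the arrays differed by 1.58 times, so values were quantile normalised. Probe sets at or above the array median on at least 2 arrays were kept (15337), and the brightest of each gene represented it (9352 genes, 3140 with a choice). log2(signal + 16) was fitted with limma 3.58.1 in R 4.3.3, with 1 coefficient for each of 32 groups, a mean trend in the variance, 2-sided tests and Benjamini-Hochberg adjustment over all 9352 genes. Stages were weighted equally, and tissues equally within a stage.

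The genes named were the 10 highest and 10 lowest that passed with the same direction at every stage, the 4 members of each list with the largest change, and a fixed panel; in other comparisons, the 8 highest and 8 lowest. A few list members beyond these were named after their values were seen. Of 175 named genes, 49 had other probe sets, 74 in all, of which 55 gave the same call and 0 the opposite one. The gene lists, of which some members had no probe set or failed the filter, and the choice of tissues were made with earlier results of these data known. Columns of no sample numbered 0.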

Additional observations from a re-analysis of the deposited data

Results flagged for a closer look

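Genes whose difference from the surroundings was not the same in the 2 late vestibular tissues were picked out by the direct test between them, among the 20 genes with the largest changes and the panel. Utricle with ampullae minus saccule was -1.10 for Gldc, -1.07 for Agr3, -1.22 for Zic5, -1.51 for Tecta, -1.59 for Tectb, -4.11 for Otx2 and 2.25 for Bmp4. The same was done for vestibular tissue against cochlea. The change was 2.69 for Aldh1a3, 1.78 for Agr3, 1.02 for Gap43, 1.67 for Hmx2, 1.33 for Atoh1 and 2.44 for Gfi1. It was -1.19 for Tecta, -1.81 for Tectb, -1.87 for Otx2, -2.75 for Gata3 and -1.17 for Bmp4.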

How the results depend on the processing

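Leaving out 1 array at a time gave 826 to 904 genes higher and 673 to 782 lower than in the surroundings, 73 to 82 and 68 to 75 against the cochlea, 141 to 152 and 112 to 122 between utricle with ampullae and saccule, and 367 to 446 that rose and 171 to 213 that fell with time. A pseudocount of 64, which shrinks changes of dim genes, gave 504 genes higher than in the surroundings, 40 higher and 46 lower against the cochlea, 92 and 72 between utricle and saccule, and 245 and 96 with time. Among named genes it ended the calls of several dim ones, including Atoh1 (0.97), Hmx2 (0.87), Tbx2 (0.94), Myo7a (0.70), Aldh1a1 (0.96), Esrrb (0.79), Hoxa5 (-0.61) and Fgfr3 (-0.95). With every probe set tested alone, 294 of 14014 probe sets fell with time, where more items were tested than the 9352 genes. With E11 to E12 alone Tectb was -0.12 and Atoh1 -0.21. Of 143 genes named for the surroundings, 106 kept their call under every alternative in which they were tested, as did the 16 of each other comparison. The setting with every probe set tested alone was not part of this count. Genes that passed in no setting count as kept even where their sign changed, such as Bmp4 (-0.88 to 0.71).

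Replicate numbers were not treated as pairs, because the labels do not say that they mark shared litters and not every pair deviated together. At E13, E14 and E15, however, same-numbered pools of utricle, saccule and cochlea held equal numbers of tissues. Deviations of same-numbered arrays correlated at -0.35 to 0.50 between utricle and saccule, above 0.1 in 5 of 6 pairs, and at -0.50 to 0.58 between vestibular tissue and cochlea, above 0.1 in 13 of 15. With a replicate block the counts were 836 and 680 against the surroundings, 76 and 71 against the cochlea, 147 and 116 between utricle and saccule, and 404 and 186 with time. Both non-inner ear arrays mix stages, so no comparison with the surroundings at matched age could be made. Genes near the floor are bounded rather than measured.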

Other observations

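Averaged over all stages, 2 of 35 cell cycle genes were higher than in the surroundings and 1 lower, although their median ran from 0.33 at E11 to -1.06 at E15. Both shares are below the 8.92 and 7.25 percent of all genes. Ube2c, which tags mitotic proteins for degradation, had 286, 1020 and 2138 on vestibular arrays, against 321 and 204 in the surroundings (change 1.90, SE 0.17), and the mitotic kinase Aurkb changed by 1.08 (SE 0.13). Rrm2, a subunit of ribonucleotide reductase, changed by -1.60 (SE 0.29), or by -0.97 without non-inner ear replicate 1. Its other probe sets changed by -1.07, which passed, and by -0.23, which did not.

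Of 15 immediate early and heat shock genes, 2 were higher than in the surroundings and 1 lower, close to the 8.92 and 7.25 percent of all genes. The antiproliferative gene Btg2 changed by 1.93 (SE 0.22), Ier2 by 1.70 (SE 0.21) and the zinc-finger factor Egr3 by -1.94 (SE 0.19). The other probe set of Btg2 changed by 0.04 and did not pass. All tissues of these stages went through the same protease step, and its part in these values was not tested.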
